A study of Mus musculus with 16 samples.

Results

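Solute carriers (SLC genes) encode membrane proteins that move amino acids, sugars, ions, metals, vitamins, nucleotides and organic acids across the plasma membrane and across the membranes of mitochondria, lysosomes and the Golgi. The 188 genes described here were selected on their names and on their level. They are the rows of the deposited expression table whose symbol begins with Slc and a digit or Slco and a digit and whose read count averaged at least 20 over the 16 libraries, without Slc2a1, Slc16a1, Slc16a3, Slc7a11, Slc40a1, Slc11a1 and Slc11a2. The table lists 21898 genes, 390 of them with such a symbol. Of these 390, 195 reached the minimum, 7 of which were left out by name, and 195 stayed below it, among them 80 without a count in any library. The mean count over all libraries thus chose the members, so that a gene high in only part of the libraries could enter. This was so for 4 members, Slc6a12, Slc6a13, Slc17a8 and Slco2b1, whose mean count was below 20 either in the libraries with RANKL or in those without. The RANKL differences of Slc6a12, Slc6a13 and Slco2b1 are therefore given as a description, without a p. Just inside the minimum stood Slc17a8 with a mean of 20.88 counts, Slc25a47 with 22.81, Slc9b2 with 23, Slc16a5 with 23.25 and Slc6a13 with 23.56. Just outside stood Slc6a9 with 19.94, Slc39a12 with 19.62, Slc13a2 with 17.06, Slc14a1 with 17 and Slc25a18 with 16.38. All 188 members passed the filter on low counts, none had a library without a count, and they span 45 SLC families.

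Carriers of this superfamily work either as facilitators, which let a substrate follow its gradient, or as secondary active transporters, which couple the substrate to sodium, protons or a counter-ion. Osteoclasts depend on several of them, since bone resorption needs the supply of bicarbonate and chloride, the export of base and the disposal of released phosphate, and since growing cells take up amino acids. Macrophages, the lineage from which osteoclasts arise, use other members to recover haem, nucleosides and amino acids from digested material in the lysosome.

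The libraries come from bone marrow-derived monocytes (BMDMs) of C57BL/6 mice, taken from tibias and femurs. The study asked what BRD9 does while osteoclasts form. BRD9 carries a bromodomain, which reads acetylated histones, and belongs to the non-canonical form of the BAF remodeller. Each of 4 groups held 4 libraries, and every group carried M-CSF at 50 ng/ml, the survival factor of the macrophage lineage. MR + iBRD9 cells received RANKL at 100 ng/ml, the cytokine that induces osteoclast differentiation, and iBRD9, an inhibitor of the BRD9 bromodomain. MR + vector cells received RANKL at 100 ng/ml and vector, the vehicle control. M + iBRD9 cells received iBRD9 without RANKL, and M + vector cells received vector without RANKL. The study describes 1 day of treatment for this sequencing. The labels do not give the iBRD9 concentration or the age of the donor animals. The study's methods name C57BL/6J mice a few weeks old for such cultures, and its text refers to iBRD9 at 1 µM for these expression data. Replicates carry numbers only, and with no statement that cultures or mice differed between them, the p-values reflect variation among these libraries that could be technical in part.

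Total counts ranged from 15372775 to 18987926 per library, and the 188 members together took 1.253% to 1.305% of the counts of a library. The first principal component of all tested genes held 56.6% of the variance and separated libraries with RANKL from those without, and the second held 5.3% and separated iBRD9 from vector. Together 8 macrophage markers reached 20900 to 25000 CPM (library counts scaled to a common depth) in every library. Over all libraries, 5 B cell markers summed to 1.61 to 3.84 CPM, 6 T and NK cell markers to at most 0.356 CPM, 5 mast cell and basophil markers to 0.306 to 1.88 CPM and 6 erythroid markers to at most 0.409 CPM. The defining genes Cd3d and Cd3e of T cells, Fcer1a of mast cells, and Hba-a2 and Hbb-bt of erythroid cells had no count. The summed level of 10 neutrophil markers was 54.2 to 71.0 CPM in MR + iBRD9, 81.7 to 101 in MR + vector, 77.5 to 104 in M + iBRD9 and 85.1 to 94.6 in M + vector. The sum of 6 stromal markers was 9.75 to 18.6 CPM in MR + iBRD9, 9.51 to 13 in MR + vector, 16.5 to 20 in M + iBRD9 and 16.2 to 22.7 in M + vector. In bulk RNA, fewer cells of a type and less RNA per cell cannot be told apart.

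Per length, which is the scale on which genes can be compared with each other, the ADP/ATP carrier Slc25a5 was the most abundant member, with 252 FPKM averaged over the 4 group means. The taurine carrier Slc6a6 followed with 188 FPKM, then the lysosomal haem carrier Slc48a1 with 99.1, the mitochondrial phosphate carrier Slc25a3 with 94.6 and a further ADP/ATP carrier, Slc25a4, with 81.5. Mitochondrial carriers thus held 3 of the 5 highest places on this average. The next places were taken by Slc9a3r1 with 78.9 FPKM, the zinc importer Slc39a1 with 61.5, the oxoglutarate carrier Slc25a11 with 57.7, the ATP-Mg/phosphate carrier Slc25a24 with 57.5 and the fatty acid carrier Slc27a1 with 56.2. The ranges of the group means of the last 4 overlap, so neighbours among them were not separated. The group means of Slc48a1 (82.3 to 117 FPKM) and of Slc9a3r1 (59.8 to 97.5) also overlapped those of Slc25a3 and Slc25a4. Without RANKL, Slc9a3r1 (97.5 in M + iBRD9, 95.6 in M + vector) stood above Slc25a4 (75.4 and 76.4), so this order varied by group. Slc9a3r1 is the symbol of a PDZ scaffold protein (NHERF1) and not of a carrier, and Slc7a6os and Slc4a1ap are likewise no carriers.

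To see how RANKL changed carrier expression, MR + vector was set against M + vector. Of the 188 members, 41 rose and 61 fell (edgeR's quasi-likelihood test, Benjamini-Hochberg adjusted p below 0.05), against 20.1% of the 11559 genes tested that rose and 20.6% that fell. In the members these shares were 21.8% and 32.4%. The median log2 fold change over the members was -0.06, beside -0.001 over all genes tested. Most changes were small, since 9 members rose and 5 fell by at least 2-fold. These counts include Slc6a12 and Slc6a13 among the rises and Slco2b1 among the falls. The largest positive changes were those of Slc6a12, Slco4a1, Slc6a13, Slc39a4, Slc5a3 and Slco3a1, in this order. Amino acid carriers moved in both directions, and 4 of 5 copper and magnesium carriers fell. In the same comparison 1 of 8 macrophage markers rose and 5 fell, 1 of 8 tested neutrophil markers rose and 1 fell, and 4 of 5 tested stromal markers fell. Their part in the RANKL results was not tested.

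**Figure D1:**
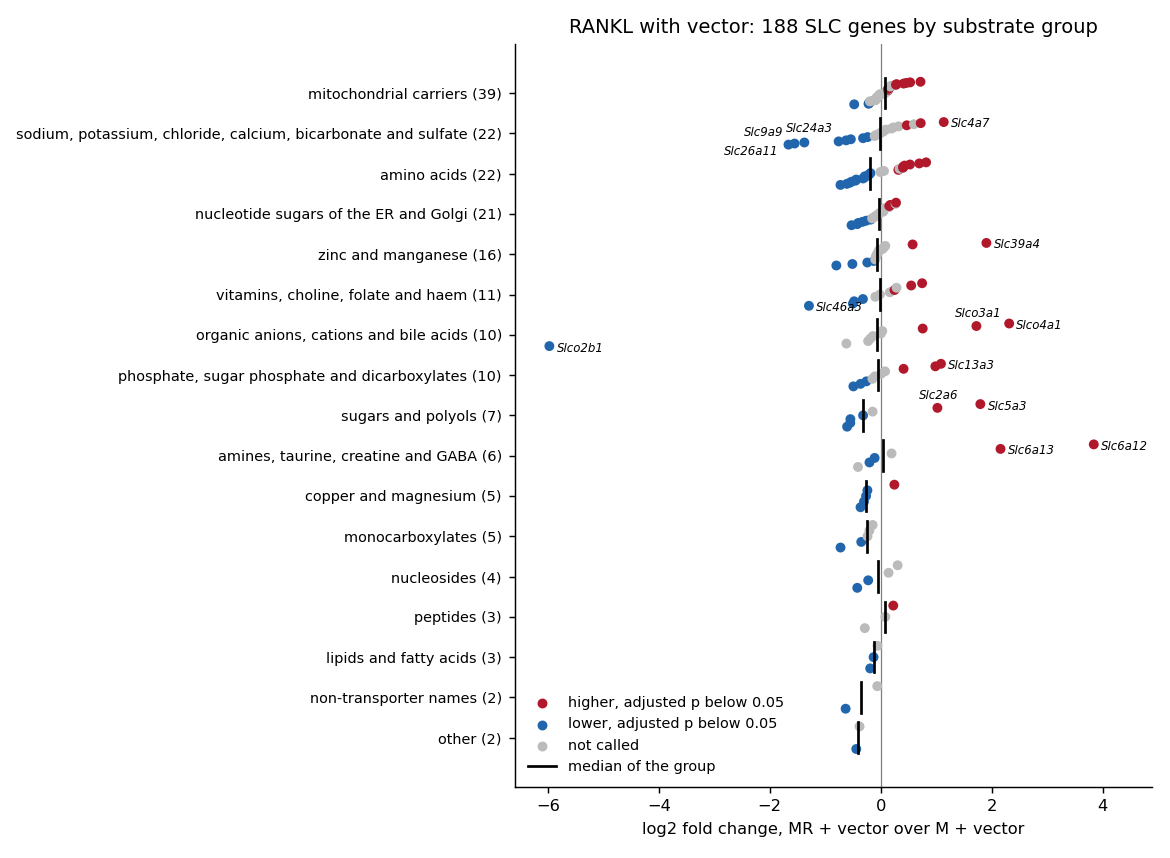
Log2 fold change of each of the 188 members, MR + vector over M + vector (x axis), by substrate group (y axis, number of members in brackets); red points rose and blue points fell at an adjusted p below 0.05, grey points were not called, and the black line is the group median. The largest fall was Slco2b1 at -5.97 and the largest rise Slc6a12 at 3.84, while every mitochondrial carrier stayed between -0.48 and 0.72. Slc6a12, Slc6a13 and Slco2b1 are coloured like the others but are a description only, since they passed the count minimum through the libraries where they are high.

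Of 6 carriers of amines, taurine, creatine and GABA, 2 fell (33.3%), against 20.6% of all genes tested. Slc6a12 and Slc6a13 were higher with RANKL and are given as a description, since they passed the count minimum through those libraries. Slc6a12, the betaine and GABA transporter BGT1, had 9.71, 12.8, 8.24 and 8.62 CPM in MR + vector libraries, against 0.99, 0.84, 0.27 and 0.63 CPM in M + vector libraries. Every library with RANKL lay above every library without it, and the log2 fold change was 3.84 ± 0.27 (SE). Its counts were 109 to 197 in libraries with RANKL and 5 to 27 in those without. Its neighbour Slc6a13, a GABA and taurine carrier (GAT2), lies 5342 bases upstream on the same strand of chromosome 6. Slc6a13 was much lower, with 2.36, 3.25, 1.58 and 1.48 CPM in MR + vector, against 0.41, 0.48, 0.22 and 0.80 in M + vector, and its log2 fold change was 2.16 ± 0.40. The libraries of both groups did not overlap here either. Its counts were 24 to 50 in libraries with RANKL and 4 to 29 in those without. The sodium/myo-inositol cotransporter Slc5a3, an osmolyte carrier of the sugar and polyol group, averaged 39.4 ± 4.13 CPM in MR + vector and 11.4 ± 1.76 CPM in M + vector (SD, n = 4 each), a log2 fold change of 1.80 ± 0.12 (adjusted p = 4.8e-14). Slc5a3 lies within Mrps6 on the same strand, so that reads of the pair may not have been told apart in counting. The taurine carrier Slc6a6 and the creatine carrier Slc6a8, of the same family as Slc6a12, fell slightly, by 0.11 and 0.20 on the log2 scale, and the call of Slc6a6 was lost without MR + vector replicate 3 or M + vector replicate 1 (adjusted p up to 0.12).

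For the neighbouring pair and the member with the largest fall, a start region is printed that was chosen because it held a motif match. NF-kB and AP-1, factors that RANKL activates, bind short motifs that can be looked for there. The kappaB form searched was GGGA, any base and TTTCC, and the AP-1 form TGANTCA, both on either strand, and the forms were picked after several had been looked at. RefSeq windows of 250 bases before and 50 bases after each listed transcript start (GRCm38.p6) were found for 142 of the 188 members, 197 windows in all. The kappaB form occurred in 0.411% of all 32851 windows and in 3 of the 197 member windows, those of Slc6a12, Slc6a13 and Slc37a4. TGANTCA occurred in 7.81% of all windows and in 13 of those of the members (6.6%). The E-box CACGTG occurred in 7.15% of all windows and in 28 of those of the members (14.2%), and in none of the windows printed. Only 1 listed start of each gene carried the kappaB form, of 5 starts of Slc6a12 and 3 of Slc6a13. TGANTCA was found at 1 of 5 starts of Slc6a12 and 1 of 3 of Slco2b1. It occurred in 3 of the 49 windows of members that rose with RANKL in vector (6.12%) and in 8 of the 65 of those that fell (12.3%). The kappaB form occurred in 2 of these 49 windows, both printed here, and in none of the 65. No window of Slco4a1, Slc5a3, Slc4a7, Slc2a6 or Slc13a3, which also rose by at least 2-fold, held either form. Each window matches GRCm39 once, on the same strand, Slc6a12 at chr6:121319283-121319582 (+), Slc6a13 at chr6:121280348-121280647 (+) and Slco2b1 at chr7:99360498-99360797 (-). The transcript start of the Slc6a12 window lies 502 bases before the gene start given in the table, that of the Slc6a13 window 3412 bases after its own, and that of Slco2b1 at its gene start. Capitals mark the motif matches, a kappaB match in the sequences of Slc6a12 and Slc6a13, and a TGANTCA match in those of Slc6a12 and Slco2b1. A match describes these letters and shows no binding.
Slc6a12: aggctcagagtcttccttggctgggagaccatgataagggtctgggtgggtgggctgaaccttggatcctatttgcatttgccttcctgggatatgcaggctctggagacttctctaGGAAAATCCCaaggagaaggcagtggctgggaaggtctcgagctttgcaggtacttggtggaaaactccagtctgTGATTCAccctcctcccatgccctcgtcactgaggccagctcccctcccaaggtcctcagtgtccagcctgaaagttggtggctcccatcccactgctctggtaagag
Slc6a13: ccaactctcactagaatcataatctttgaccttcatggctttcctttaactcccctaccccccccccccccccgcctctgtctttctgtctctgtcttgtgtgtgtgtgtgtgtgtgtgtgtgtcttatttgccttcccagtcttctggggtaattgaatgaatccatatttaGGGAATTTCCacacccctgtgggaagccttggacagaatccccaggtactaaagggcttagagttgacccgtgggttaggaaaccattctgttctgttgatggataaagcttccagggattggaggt
Slco2b1: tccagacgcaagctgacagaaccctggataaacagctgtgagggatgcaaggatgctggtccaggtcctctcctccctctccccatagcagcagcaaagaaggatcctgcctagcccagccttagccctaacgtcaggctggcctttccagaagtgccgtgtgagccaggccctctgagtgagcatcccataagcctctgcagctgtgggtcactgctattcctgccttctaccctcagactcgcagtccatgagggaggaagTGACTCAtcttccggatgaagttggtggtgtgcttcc

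Of 10 carriers of organic anions, cations and bile acids, 3 rose (30%), against 20.1% of all genes tested. Slco2b1 was the only one lower and is given as a description, since its mean count with RANKL was below 20. Slco4a1, a carrier of thyroid hormones and prostaglandins, had 130, 119, 108 and 112 CPM in MR + vector, against 26.6, 21.4, 25.8 and 20.2 CPM in M + vector. The groups were far apart, with a log2 fold change of 2.32 ± 0.07 (adjusted p = 1.7e-22). Slco3a1, a prostaglandin carrier, averaged 13.9 ± 1.71 CPM in MR + vector and 4.18 ± 0.45 CPM in M + vector, a log2 fold change of 1.73 ± 0.13 (adjusted p = 4.9e-13). Slco2b1 went the other way. This carrier of steroid sulfates and many drugs had 0.45, 0.71, 0.41 and 0.51 CPM in MR + vector, against 33.2, 32.7, 34.2 and 31.8 CPM in M + vector. Its level was 62.8-fold lower with RANKL (log2 fold change -5.97 ± 0.16), from 7 to 16 counts in libraries with RANKL and 483 to 627 in those without. The ergothioneine carrier Slc22a4 rose by 0.76 ± 0.10 (adjusted p = 1.7e-07).

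**Figure D2:**
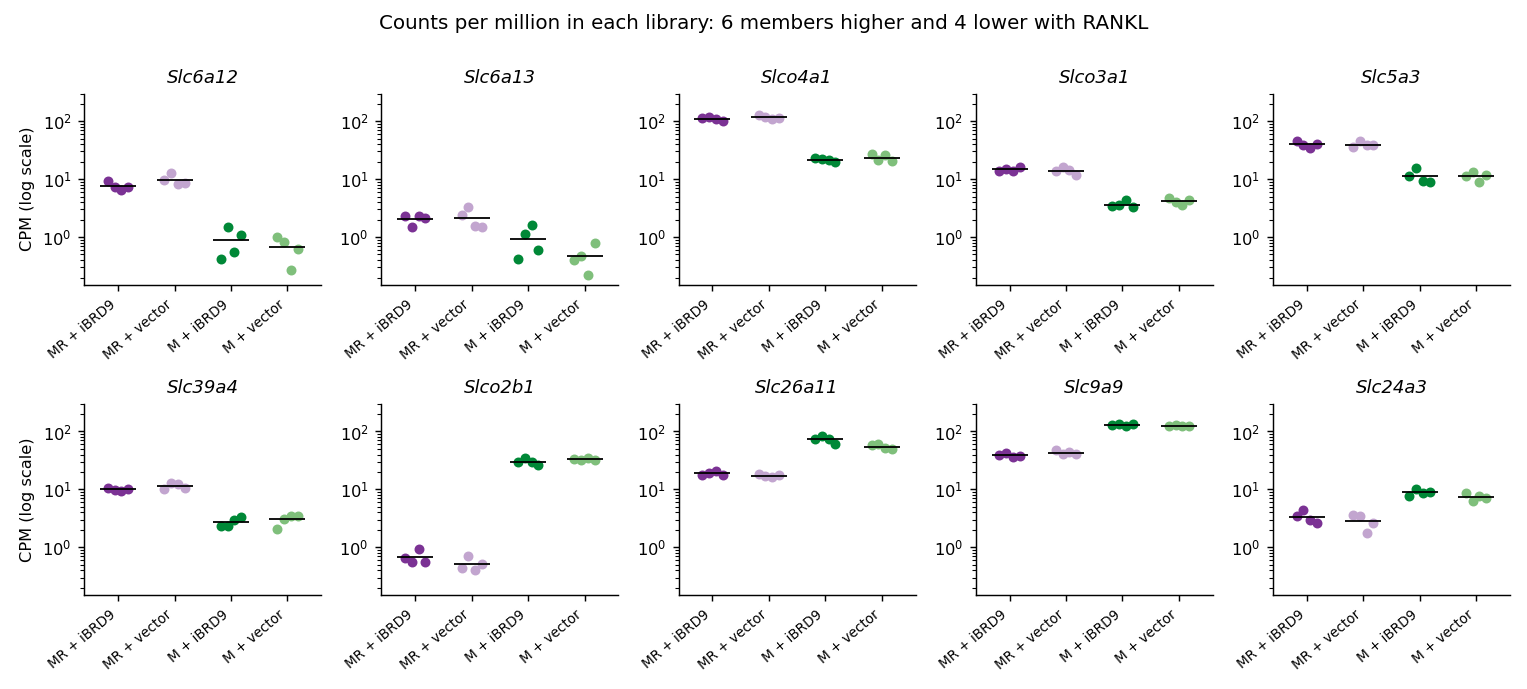
CPM in each library (points, log scale) and group mean (bar) for 10 members in the 4 groups, 6 that rose with RANKL (Slc6a12 to Slc39a4) and 4 that fell (Slco2b1 to Slc24a3). The libraries with RANKL lie apart from those without it in every panel except Slc6a13, where M + iBRD9 reached 1.61 CPM and MR + iBRD9 went down to 1.48 CPM.

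Of 22 members with family numbers of inorganic ion carriers, 3 rose (13.6%) and 8 fell (36.4%), against 20.1% and 20.6% of all genes tested. They include Slc4a1ap, which is no carrier and was not called. The sodium bicarbonate cotransporter Slc4a7, which brings base into the cell and takes part in pH control in osteoclasts, averaged 117 ± 7.26 CPM in MR + vector and 53.1 ± 3.59 CPM in M + vector, a log2 fold change of 1.14 ± 0.06 (adjusted p = 1.2e-17). The potassium chloride cotransporter Slc12a4 rose by 0.47 ± 0.06 (adjusted p = 3.9e-08). The chloride/bicarbonate exchanger Slc4a2, which exports base from the resorbing osteoclast, averaged 77.8 ± 2.32 CPM in MR + vector and 83.9 ± 4.51 CPM in M + vector (log2 fold change -0.11 ± 0.05, adjusted p = 0.077). The sodium/proton exchanger Slc9b2 (NHA2), known for its induction in osteoclasts, was just above the count minimum, with 1.17 to 2.51 CPM in MR + vector and 0.90 to 1.46 CPM in M + vector, and its libraries overlapped (0.60 ± 0.31, adjusted p = 0.12).

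The 8 falls in the same group included sulfate, sodium/proton and calcium carriers. Slc26a11, a sulfate and chloride carrier, had 18.3, 17.1, 16.4 and 17.7 CPM in MR + vector, against 58.2, 60.7, 51.9 and 49.1 CPM in M + vector, a log2 fold change of -1.66 ± 0.09 (adjusted p = 3.4e-17). Slc9a9, a sodium/proton exchanger of recycling endosomes, averaged 43.1 ± 2.92 CPM in MR + vector and 126 ± 2.27 CPM in M + vector (-1.55 ± 0.05, adjusted p = 8.6e-22). The sodium/calcium exchangers Slc24a3, Slc24a5 and Slc8a1 all fell. Slc24a3 fell to 2.87 ± 0.86 CPM in MR + vector, against 7.39 ± 0.97 CPM in M + vector (-1.38 ± 0.19, adjusted p = 2.1e-07), Slc24a5 fell by 0.76 and Slc8a1 by 0.62. Slc24a5 overlaps the more abundant Myef2 on the opposite strand, and counting by strand is not stated.

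Among amino acid carriers 7 of 22 rose (31.8%) and 12 fell (54.5%), against 20.1% and 20.6% of all genes tested. Their median log2 fold change was -0.19. No member of the group reached a 2-fold change. Importers of the plasma membrane were among the rises. Slc7a5 (LAT1), which imports large neutral amino acids such as leucine, had 43.2, 38.2, 41.1 and 40.2 CPM in MR + vector, against 26, 24.8, 27.1 and 22.5 CPM in M + vector (0.70 ± 0.09, adjusted p = 7.4e-08). Slc7a1 (CAT1), the arginine and lysine importer, averaged 99.1 ± 3.77 CPM in MR + vector and 68.7 ± 6.61 CPM in M + vector (0.53 ± 0.06, adjusted p = 2.0e-09). The glutamine importers Slc1a5 and Slc38a2 rose by 0.43 and 0.40, the cationic and neutral exchanger Slc7a6 by 0.32 and the aromatic amino acid carrier Slc16a10 by 0.41. Slc43a3, which counts here by its family number and carries purine nucleobases, rose by 0.82 ± 0.06 (adjusted p = 4.1e-13).

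The largest fall of the group was that of Slc7a4 (-0.72), at 2.59 ± 0.34 CPM in MR + vector and 4.29 ± 0.76 CPM in M + vector. Slc38a10 fell as well, with 187 ± 5.19 CPM in MR + vector and 233 ± 10.6 CPM in M + vector. The falls also included the partner of Slc7a5 and Slc7a6 and carriers of the lysosome. Slc3a2 (4F2hc), the heavy chain that brings Slc7a5, Slc7a6, Slc7a7 and Slc7a8 to the cell surface, averaged 157 ± 2.93 CPM in MR + vector and 192 ± 3.39 CPM in M + vector (-0.29 ± 0.05, adjusted p = 1.4e-05). Of its light chains among the members, 2 rose (Slc7a5 and Slc7a6) and 2 fell. Slc7a7 (y+LAT1, which exports arginine) fell by 0.56 and Slc7a8 (LAT2) by 0.44. The light chains therefore did not move in 1 direction. At the lysosome, the proton-coupled carrier Slc36a1 (PAT1) fell by 0.53 ± 0.08 (adjusted p = 6.6e-07), the cationic amino acid exporter Slc66a1 by 0.45 and the arginine sensor Slc38a9 by 0.20 with overlapping libraries (adjusted p = 0.033). Slc7a2 (CAT2), the arginine carrier linked to nitric oxide synthesis in macrophages, stood at 2.25 ± 0.80 CPM in MR + vector and 3.45 ± 0.78 CPM in M + vector, with overlapping libraries (-0.61 ± 0.24, adjusted p = 0.037). The call of Slc38a9 was lost without any 1 of 4 libraries (MR + vector replicates 3 and 4, M + vector replicates 1 and 4, adjusted p up to 0.15), and that of Slc7a2 without any 1 of 5 (MR + vector replicates 1, 2 and 3, M + vector replicates 1 and 3, adjusted p up to 0.17).

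**Figure D3:**
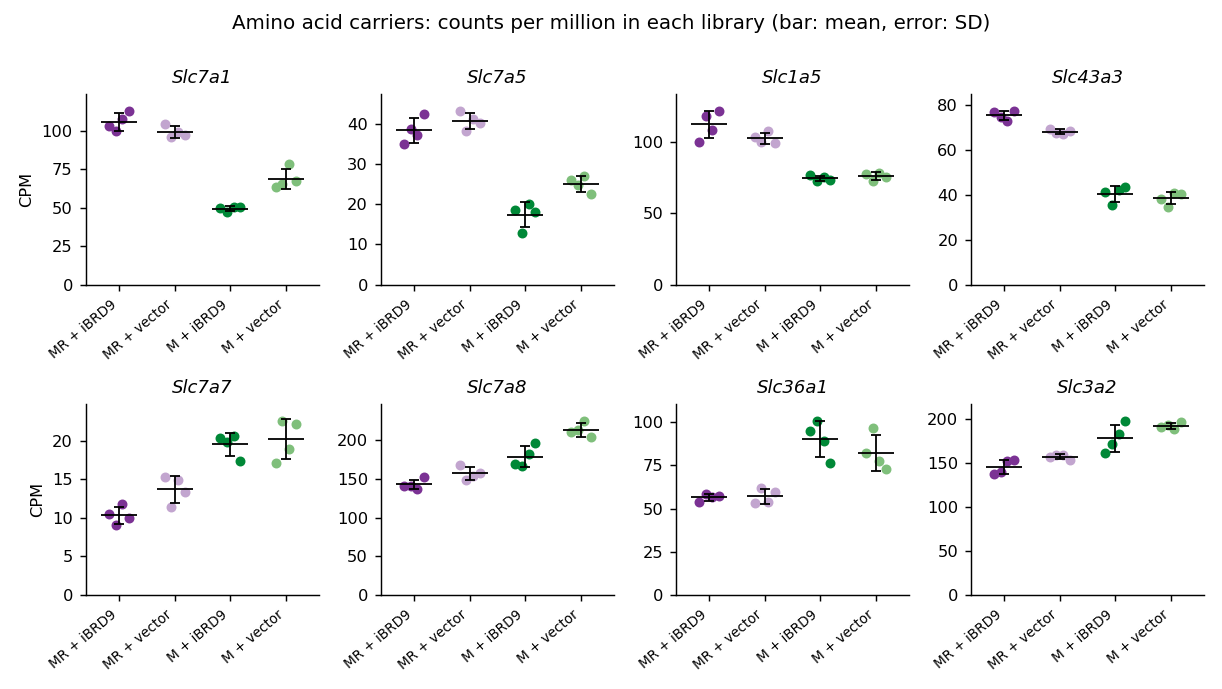
CPM in each library (points), group mean (wide bar) and SD (error bar, n = 4) for 8 genes of amino acid transport in the 4 groups, on axes that start at 0. Slc7a1 and Slc7a5 lie lowest in M + iBRD9, at 49.4 and 17.4 CPM, and Slc7a7 lies lowest in MR + iBRD9, at 10.3 CPM.

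Sugar carriers split by gene. Slc2a6 (GLUT6), a glucose transporter family member of lysosomes, averaged 84.2 ± 5.82 CPM in MR + vector and 41.4 ± 2.42 CPM in M + vector (1.02 ± 0.06, adjusted p = 4.5e-15). The intracellular glucose carrier Slc2a8 fell by 0.61 and the urate carrier Slc2a9 by 0.55, and so did Slc45a4, by 0.55. With Slc5a3, 2 of the 7 members of the group rose (28.6%) and 4 fell (57.1%), against 20.1% and 20.6% of all genes tested. Of 5 monocarboxylate carriers none rose, and 2 fell (40%), the pyruvate and lactate carrier Slc16a7 by 0.72 and Slc16a6 by 0.35. Slc16a6 shares 1959 bases with Amz2 on the opposite strand.

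Transcripts of both sodium/phosphate cotransporters of the SLC20 family rose. The sodium/phosphate cotransporter Slc20a1 (PiT1) had 187, 177, 196 and 184 CPM in MR + vector, against 89.9, 89.7, 101 and 94.7 CPM in M + vector, a log2 fold change of 0.99 ± 0.05 (adjusted p = 7.5e-17), and its relative Slc20a2 rose by 0.41. The sodium-coupled dicarboxylate carrier Slc13a3 averaged 4.26 ± 0.28 CPM in MR + vector and 2.01 ± 0.48 CPM in M + vector (1.09 ± 0.22, adjusted p = 0.00011). The lysosomal sialic acid exporter Slc17a5 fell by 0.49 and the sugar phosphate exchanger Slc37a2 by 0.26. Of the 10 members, 3 rose (30%) and 3 fell (30%), against 20.1% and 20.6% of all genes tested.

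Of 16 zinc and manganese carriers 6 were called, 2 higher (12.5%) and 4 lower (25%), against 20.1% and 20.6% of all genes tested. The zinc importer Slc39a4 (ZIP4) had 10.0, 12.9, 12.4 and 10.5 CPM in MR + vector, against 2.10, 3.11, 3.51 and 3.45 CPM in M + vector (1.91 ± 0.15, adjusted p = 2.8e-12), and Slc39a13 of the Golgi rose by 0.58. Slc39a13 shares 4579 bases with Psmc3 on the opposite strand. The zinc and manganese importer Slc39a8 (ZIP8) fell by 0.80, the zinc exporter Slc30a1 by 0.51 and the zinc importer Slc39a3 by 0.24, so that 2 rose and 4 fell. All 5 carriers of copper and magnesium were called, 1 higher (20%) and 4 lower (80%). The copper importer Slc31a1 (CTR1) fell by 0.24 and the magnesium carriers Slc41a2 and Slc41a3 by 0.26 and 0.30, while Slc31a2, which releases copper from endosomes and lysosomes, rose by 0.25.

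Mitochondrial carriers were the largest group, with a median of 0.07. Of 39 members 11 rose (28.2%) and 5 fell (12.8%), against 20.1% and 20.6% of all genes tested. The ADP/ATP carrier Slc25a5 averaged 459 ± 16.5 CPM in MR + vector and 379 ± 15.9 CPM in M + vector (0.28 ± 0.04, adjusted p = 2.5e-06), and Slc25a4 was higher by 0.13. The mitochondrial iron carrier Slc25a28 (mitoferrin 2) rose by 0.46, the glutamate carrier Slc25a22 by 0.41 and the ATP-Mg/phosphate carrier Slc25a25 by 0.53. Among the falls were Slc25a23, a further ATP-Mg/phosphate carrier, by 0.48, the NAD carrier Slc25a51 by 0.22 and Slc25a45 by 0.19.

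Carriers of vitamins, choline, folate and haem gave 3 rises (27.3%) and 4 falls (36.4%) among 11 members, against 20.1% and 20.6% of all genes tested. The choline carrier Slc44a1 rose by 0.75 and the reduced folate carrier Slc19a1 by 0.55. Slc19a1 shares 8825 bases with Col18a1 on the opposite strand. Slc48a1 (HRG1), which returns haem from the phagolysosome, fell to 225 ± 6.75 CPM in MR + vector, against 319 ± 10.8 CPM in M + vector (-0.50 ± 0.04, adjusted p = 1.8e-11). The lysosomal carrier Slc46a3 fell further, by 1.29 ± 0.07 on the log2 scale (adjusted p = 3.7e-16). The lysosomal nucleoside exporter Slc29a3 fell by 0.42 and the concentrative nucleoside importer Slc28a2 by 0.22. Of 21 carriers of nucleotide sugars and related substrates of the ER and Golgi, 3 rose (14.3%) and 6 fell (28.6%). The largest change was that of Slc35f5 at -0.53. The scaffold Slc9a3r1 fell by 0.63.

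The same comparison was made in cells with iBRD9, MR + iBRD9 against M + iBRD9, which shares no library with the comparison in vector. Here 55 members rose and 60 fell, against 24.6% and 25.8% of all genes tested. Slc6a12 and Slc6a13 are again among the rises and Slco2b1 among the falls. In this comparison 6 of 8 macrophage markers fell and none rose (median -0.37), and of 8 tested neutrophil markers 6 fell and 1 rose (median -0.70). Their part in the result was not tested. Of the members, 36 rose in both comparisons, 54 fell in both and none went in opposite directions, while 25 were called with iBRD9 alone, 12 with vector alone and 61 in neither. Over all genes tested, 1956 rose in both, 2045 fell in both and 6 went in opposite directions. Across the 188 members the log2 fold changes had a Pearson correlation of 0.96 and a Spearman correlation of 0.90, a description over genes measured in separate libraries. Over all genes tested these were 0.87 and 0.81. The values over members include the large changes of Slco2b1 and Slc6a12. In cells with iBRD9, Slco4a1 rose by 2.34 ± 0.08 and Slco3a1 by 2.02 ± 0.13. The log2 fold change was 3.06 ± 0.26 for Slc6a12, 1.12 ± 0.36 for Slc6a13, whose libraries overlapped, and -5.46 ± 0.15 for Slco2b1. Slc7a5 and Slc7a1 passed a 2-fold rise, at 1.14 ± 0.09 and 1.1 ± 0.06.

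To see what iBRD9 did in the presence of RANKL, MR + iBRD9 was set against MR + vector. Among the 188 members, 2 rose and 5 fell, against 0.718% of all genes tested that rose and 2.05% that fell, and the median log2 fold change was -0.02. The count at an unadjusted p below 0.05 was 26, beside 1533 of the 11559 genes tested. The largest of the 7 changes was 1.33-fold (Slc7a7). The potassium chloride cotransporter Slc12a4 had 75.6, 77.6, 78.7 and 86.2 CPM in MR + iBRD9, against 70.4, 64.0, 67.2 and 64.8 CPM in MR + vector (0.26 ± 0.06, adjusted p = 0.0062). Slc35e4, a member of the nucleotide sugar family whose substrate is not established, averaged 48 ± 3.53 CPM in MR + iBRD9 and 40.8 ± 1.55 CPM in MR + vector (0.24 ± 0.06, adjusted p = 0.038). Neither rise had overlapping libraries.

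The 5 falls with iBRD9 in the presence of RANKL were of the amino acid carrier Slc7a7, the sugar carrier family member Slc45a4, the copper carriers Slc31a1 and Slc31a2 and the lysosomal carrier Slc17a5. Slc7a7 had 10.6, 9.02, 11.7 and 9.99 CPM in MR + iBRD9, against 15.3, 11.4, 14.9 and 13.3 CPM in MR + vector, with 1 pair of libraries overlapping (-0.41 ± 0.11, adjusted p = 0.041). Slc45a4 averaged 57.8 ± 2.26 CPM in MR + iBRD9 and 68.6 ± 1.08 CPM in MR + vector (-0.25 ± 0.06, adjusted p = 0.011). Both copper carriers fell. Slc31a2 averaged 47.8 ± 3.65 CPM in MR + iBRD9 and 57.2 ± 4.26 CPM in MR + vector (-0.26 ± 0.06, adjusted p = 0.019), and Slc31a1 averaged 99.9 ± 2.33 CPM in MR + iBRD9 and 111 ± 0.70 CPM in MR + vector (-0.15 ± 0.04, adjusted p = 0.045). The sialic acid exporter Slc17a5 averaged 63.2 ± 3.08 CPM in MR + iBRD9 and 71.8 ± 2.85 CPM in MR + vector (-0.18 ± 0.05, adjusted p = 0.032). Slc31a1 shares 8116 bases with Cdc26 on the opposite strand, and Slc7a7 shares 232 bases with the more abundant Oxa1l, also on the opposite strand. The 10 neutrophil markers were lower in sum in the same MR + iBRD9 libraries, 4 of the 8 tested falling in this comparison and none rising, and 3 of 8 macrophage markers fell while none rose (median -0.11). The part of these markers in the results was not tested. Each of the 7 calls was lost when some library was left out. With Slc12a4 this happened without MR + iBRD9 replicate 4 (adjusted p = 0.054), and with Slc45a4 without MR + iBRD9 replicate 3 (adjusted p = 0.059). The other 5 were each lost without 4 to 11 of the libraries (adjusted p up to 0.20). The count of rises was 1 without MR + iBRD9 replicate 1 or 2 or any MR + vector replicate, and 0 without MR + iBRD9 replicate 4. The count of falls was 1 without MR + iBRD9 replicate 1 or MR + vector replicate 1, 2 without MR + iBRD9 replicate 4 or MR + vector replicate 2 or 3, and 3 without MR + iBRD9 replicate 2 or 3 or MR + vector replicate 4.

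Without RANKL, M + iBRD9 against M + vector gave more called members, 7 that rose and 10 that fell, against 3.08% and 3.73% of all genes tested, with a median log2 fold change of 0.00. The largest falls were of the amino acid importers Slc7a5 and Slc7a1, which rose with RANKL in a comparison that shares the M + vector libraries. Slc7a5 had 18.5, 12.9, 20.04 and 18.03 CPM in M + iBRD9, against 26, 24.8, 27.1 and 22.5 CPM in M + vector (-0.53 ± 0.10, adjusted p = 0.00049). Slc7a1 had 49.7, 47.2, 50.3 and 50.4 CPM in M + iBRD9, against 63.5, 65.5, 78.3 and 67.5 CPM in M + vector (-0.48 ± 0.06, adjusted p = 2.2e-06). In both genes the libraries did not overlap. Slc7a8 fell by 0.25 ± 0.05 (adjusted p = 0.0015) and Slc20a1 by 0.28 ± 0.05 (adjusted p = 0.00094). The fatty acid carrier Slc27a1 averaged 306 ± 17.7 CPM in M + iBRD9 and 365 ± 16.5 CPM in M + vector (-0.25 ± 0.04, adjusted p = 0.00018), and the nucleoside importer Slc28a2 averaged 54.5 ± 2.03 CPM in M + iBRD9 and 64.6 ± 0.51 CPM in M + vector (-0.25 ± 0.05, adjusted p = 0.0043).

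The rises without RANKL were led by Slc26a11, at 72.7 ± 9.05 CPM in M + iBRD9 and 55 ± 5.37 CPM in M + vector (0.40 ± 0.08, adjusted p = 0.00074), and by Slc2a6, which rose by 0.26 ± 0.07 with overlapping libraries (adjusted p = 0.010). Slc7a5, Slc7a1, Slc7a8, Slc20a1, Slc27a1, Slc28a2, Slc26a11 and Slc2a6 kept their calls under every setting tried. The other 9 calls were lost when some library was left out, and among them were the zinc importer Slc39a14 at -0.30, the aspartate/glutamate carrier Slc25a13 at -0.20, the sulfate carrier Slc26a2 at -0.19 and Slc25a24 at -0.18, and on the rising side the nucleoside carrier Slc29a1 at 0.23, Slc46a3 at 0.22, the GDP-fucose carrier Slc35c1 at 0.20 and the sulfate donor carrier Slc35b2 at 0.17. The count of rises was 2 without M + vector replicate 2 or 4, 3 without M + iBRD9 replicate 2 and 4 without M + vector replicate 1 or 3, and the count of falls was 6 without M + iBRD9 replicate 2.

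**Figure D4:**
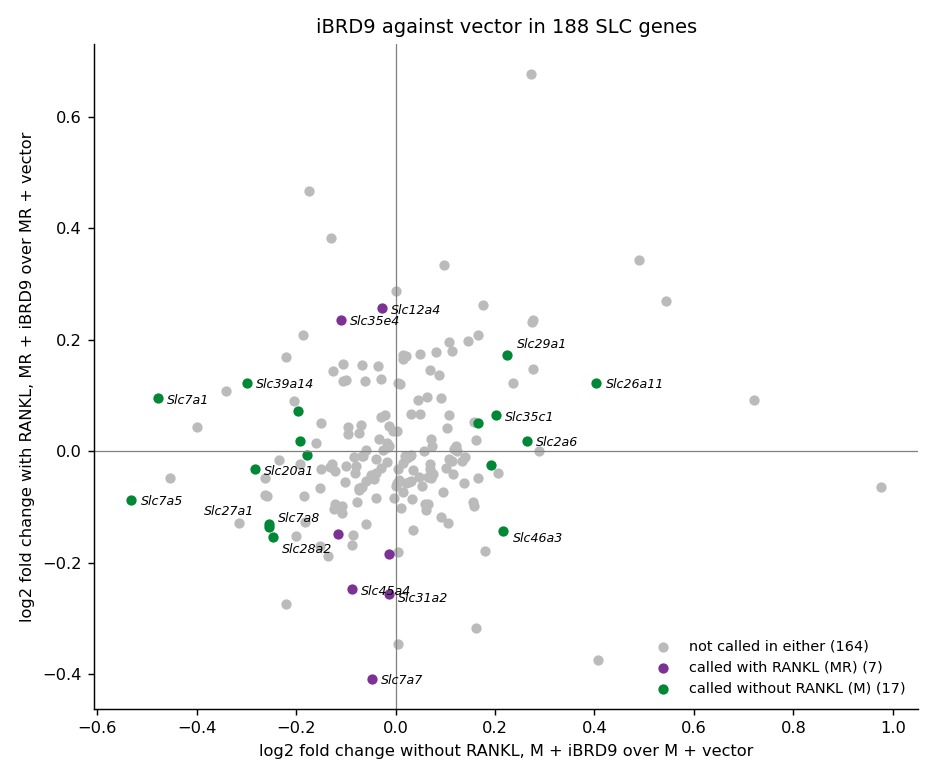
Log2 fold change of each of the 188 members with iBRD9 over vector without RANKL (x axis) and with RANKL (y axis); purple points were called with RANKL, green points without, grey points in neither, and the called members with the larger changes carry their names. The 7 and 17 called members are separate genes, and the axes share no library.

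No member was called in both iBRD9 comparisons, which share no library, while 7 were called with RANKL and 17 without. Across the members their log2 fold changes had a Pearson correlation of 0.17 and a Spearman correlation of 0.19, beside 0.135 and 0.115 over all genes tested. Of all genes tested, 31 rose in both, 88 fell in both and 7 went in opposite directions. A call in 1 comparison and not in the other does not show that the effects differ, so the difference itself was tested as the interaction of RANKL and iBRD9. Of the 188 members 2 were called with a positive interaction and 1 with a negative one, against 1.00% and 1.08% of all genes tested. An unadjusted p below 0.05 was found for 31 members, beside 1594 of the 11559 genes tested. The positive count was 10 with DESeq2, 8 without a filter on low counts, 7 with total counts as the scale and 8 with the replicate block. Of 8 macrophage markers 3 had a negative interaction, as had 1 of 8 tested neutrophil markers, and their part was not tested. Slc7a1 had an interaction of 0.57 ± 0.08 on the log2 scale (adjusted p = 0.00018). It stood at 106 ± 5.74 CPM in MR + iBRD9, 99.1 ± 3.77 in MR + vector, 49.4 ± 1.5 in M + iBRD9 and 68.7 ± 6.61 in M + vector, so that iBRD9 lowered it in cells without RANKL, and the log2 fold change with RANKL was 0.10 ± 0.06 (adjusted p = 0.49). This call was kept without any 1 of the libraries and under every other setting.

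The other interaction calls were less stable. Slc35e4 had an interaction of 0.34 ± 0.09 (adjusted p = 0.041), with log2 fold changes for iBRD9 of 0.24 with RANKL and -0.11 ± 0.07 without (adjusted p = 0.36). Slc15a4, a histidine and peptide carrier of endosomes that takes part in Toll-like receptor signalling, averaged 54.4 ± 5.64 CPM in MR + iBRD9, 61.7 ± 4.96 in MR + vector, 59.6 ± 3.69 in M + iBRD9 and 52.7 ± 4.09 in M + vector. Its interaction was -0.36 ± 0.10 (adjusted p = 0.049), and neither of its iBRD9 comparisons was called, at -0.18 ± 0.07 with RANKL (adjusted p = 0.21) and 0.18 ± 0.07 without (adjusted p = 0.13). The interaction call of Slc35e4 was lost without any of 11 libraries and that of Slc15a4 without any of 10 libraries, under 2 other scalings and under 1 other filter, the adjusted p reaching 0.13 in both. Slc7a5, which fell with iBRD9 without RANKL, had an interaction of 0.44 ± 0.13 that was not called (adjusted p = 0.061), with a log2 fold change of -0.09 ± 0.09 in the presence of RANKL. The count of positive interactions was 9 without M + iBRD9 replicate 4, 5 without MR + iBRD9 replicate 1, 4 without M + iBRD9 replicate 3, and 1 without MR + iBRD9 replicate 2 or 4, MR + vector replicate 2 or 4, M + iBRD9 replicate 2 or M + vector replicate 2 or 3. The count of negative ones was 4 without M + iBRD9 replicate 4, 2 without MR + iBRD9 replicate 2, MR + vector replicate 3 or M + iBRD9 replicate 3, and 0 without any 1 of 9 libraries, namely MR + iBRD9 replicates 3 and 4, MR + vector replicates 1 and 2, M + iBRD9 replicates 1 and 2 and M + vector replicates 1, 3 and 4.

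Other lists of transport and of amino acid sensing were counted beside the members. All 23 genes of amino acid sensing at the lysosome were tested. With RANKL in vector, none rose and 10 fell, against 20.1% and 20.6% of all genes tested. Among the falls were Sesn1, a leucine-sensing sestrin, at -1.11 ± 0.05 (adjusted p = 9.9e-19) and Fnip2, a partner of folliculin, at -0.67 ± 0.05 (adjusted p = 9.8e-13). The median log2 fold change of this list was -0.09, beside -0.001 over all genes tested. With RANKL in iBRD9, 3 rose and 14 fell, against 24.6% and 25.8% of all genes tested. With iBRD9 in the presence of RANKL, 1 rose and 1 fell, against 0.718% and 2.05% of all genes tested. In its absence 3 rose and none fell, against 3.08% and 3.73%. Lamtor1, an anchor of the sensing complex on the lysosome, was higher in both, by 0.25 ± 0.05 (adjusted p = 0.0014) and by 0.48 ± 0.05 (adjusted p = 1.8e-08). In the interaction none was positive and 3 were negative, against 1.00% and 1.08%. Of 26 ABC transporters, which are pumps driven by ATP and not solute carriers, 6 rose and 10 fell with RANKL in vector, with a median of -0.15. The glutathione conjugate pump Abcc1 rose by 0.41 ± 0.04 (adjusted p = 3.9e-10), and its relative Abcc3 fell by 0.81 ± 0.04 (adjusted p = 3.0e-17). Beside the RANKL shares of 20.1% and 20.6% given above, these ABC counts cover 26 genes. With iBRD9 in the presence of RANKL, 3 ABC transporters rose and none fell, against 0.718% and 2.05% of all genes tested. In the absence of RANKL 1 rose and 1 fell, against 3.08% and 3.73%. The interaction was positive for 2 of them and negative for none, against 1.00% and 1.08%. Of 12 tested partner subunits and driving pumps, 1 rose and 3 fell with RANKL in vector, against the same 20.1% and 20.6% of all genes tested.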

How the data were processed

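RNA-seq of BMDMs gave 16 libraries, 4 in each of 4 groups, of 15372775 to 18987926 counts. After Cutadapt trimming, the authors mapped reads with HISAT2 (build GRCm39) and deposited HTSeq counts per gene, which carry no normalization. The FPKM values deposited by the authors scale these counts by library total and by the other column used, the deposited gene length in bases. The annotation release and whether counting used strand are not given in the sources used here, so the counts of overlapping genes may be affected by each other.

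A single edgeR 4.0.16 quasi-likelihood fit (R 4.3.3) held all 16 libraries with a mean per group, after filterByExpr and TMM scaling, and left 11559 genes, a common biological coefficient of variation of 5.9% and 12 residual degrees of freedom. Tests were two-sided, and calls are at an adjusted p (Benjamini-Hochberg over all genes tested) below 0.05. CPM (count divided by library total after TMM scaling) is given as mean ± SD (n = 4), and fold changes are log2 estimates ± SE. The fit was tested on simulated data. Errors from counting alone do not cover differences between cultures.

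Alternatives were DESeq2 1.42.0, other scalings and filters, only the groups compared, a replicate block and leaving out each library. Substrate groups follow family numbers. Named members were every one called in an iBRD9 comparison or the interaction. For each RANKL comparison they were up to 15 rises and 15 falls without overlapping libraries and with at least 1 CPM in the higher group, and up to 2 per substrate group and direction with the smallest p. For levels they were the 10 with the most FPKM and the 5 on either side of the count minimum. Slc1a5, Slc38a2, Slc7a6, Slc3a2, Slc66a1, Slc38a9, Slc7a2, Slc4a2 and Slc9b2, the uncalled comparisons printed, and the promoter motifs were chosen after their values were seen. Members and lists were chosen with earlier results of these data known. Some of the genes tested are not reported here.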

Additional observations from a re-analysis of the deposited data

Results flagged for a closer look

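Over the 88 named members, 8 of 352 groups of 4 libraries held a library that stood apart from the other 3, where chance gives about 1 group in 20. In MR + iBRD9 these were Slc27a1 in replicate 4 (293 CPM, the others 309 to 310), Slc25a24 in replicate 3 (196 CPM, the others 211 to 214), Slc9a7 in replicate 2 (3.58 CPM, the others 5.27 to 5.58) and, on the high side, Slc7a2 in replicate 3 (3.39 CPM, the others 2.21 to 2.31). The other 4 were Slc16a10 in MR + vector replicate 2 (199.7 CPM, the others 216 to 219), Slc22a4 in M + iBRD9 replicate 2 (7.53 CPM, the others 10.2 to 10.7), and, in M + vector, Slc27a1 in replicate 4 (341 CPM, the others 373 to 376) and Slc15a3 in replicate 2 (122 CPM, the others 130 to 131).

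The effect of iBRD9 differed between cells with and without RANKL, by the test of the interaction, in Slc7a1 (0.57 on the log2 scale), whose call was kept under every alternative. The calls of Slc35e4 (0.34) and Slc15a4 (-0.36) were not stable, the first being lost without any of 11 libraries and the second without any of 10.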

How the results depend on the processing

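The counts of members called with RANKL moved little. Without any 1 library, 37 to 42 rose and 55 to 62 fell in vector, and 46 to 56 rose and 55 to 61 fell with iBRD9. Of the named calls, 60 of 67 with RANKL in vector and 55 of 56 with RANKL in iBRD9 were kept under every alternative, and none changed direction. The iBRD9 counts are small and moved more. With RANKL, 0 to 2 rose and 1 to 5 fell without any 1 library, and 3 fell with no filter and 2 with total counts only. Without RANKL, 2 to 9 rose and 6 to 13 fell without any 1 library, 2 rose when only the groups compared were fitted, and 16 fell with DESeq2. Positive interactions numbered 1 to 9 without any 1 library, 10 with DESeq2, 8 with no filter and 7 with total counts only. Negative ones numbered 0 to 4 without any 1 library, 2 with DESeq2, and 0 with DESeq2 size factors in edgeR, with at least 1 CPM in 4 libraries and with total counts only. The cause of these shifts was not tested. Replicate numbers were not taken as pairing the libraries, since the labels state no shared source and the correlation was above 0.1 in 2 of 24 same-numbered pairs (-0.045 to 0.14, median 0.016, against -0.016 for other pairs). Still, 8 of 16 libraries correlated best with their own number, a hint from the data only. With the replicate block 8 positive and 2 negative interactions were called. Depth limits members of a few CPM, such as Slc6a13 and Slc7a2.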
